A study of Mus musculus with 9 samples.

Results

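The regions described here are sparsely covered stretches of the mouse genome that lie directly beside CpG-dense stretches. The autosomes were divided into tiles of 1000 bp, and a tile was taken when it held 3 to 19 CpG positions in the table of the wild-type construct and adjoined a tile with 40 or more. This gave 4801 flanking tiles, of 216670 autosomal tiles with any covered position (223504 when all chromosomes are counted). Of the 9314 dense tiles, 3590 had 1 flanking tile, 619 had 2 and 5105 had none. A position is the cytosine of a CpG on 1 strand, so a CpG read on both strands counts as 2 positions. Density here is the density of covered positions, and no annotation of CpG islands in the build of the files (mm9) was used, so the tiles are called flanking tiles and the name island shore was not checked.

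CpG islands are stretches where CpGs remained frequent, often at gene starts, and they are mostly unmethylated in mouse tissues. The shores beside them are where methylation begins to rise towards the surrounding genome and where it varies among cell types. Dnmt3a is a de novo DNA methyltransferase, and Dnmt3a2 is its shorter isoform, the main one in embryonic stem cells. The ADD domain of Dnmt3a binds the tail of histone H3 when its lysine 4 is unmethylated, while nucleosomes at active CpG islands carry methylated lysine 4.

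DNA was measured by reduced representation bisulfite sequencing, in which MspI cuts at CCGG, fragments are selected by size and converted unmethylated cytosines are read as T. All samples were J1 mouse embryonic stem cells at passages 7 to 10 that lack the DNA methyltransferases (Dnmt TKO). WWD cells carried a Dnmt3a2 construct labelled WWD, R cells carried one labelled R, and WT cells carried wild-type Dnmt3a2, with 2 samples each. C had 2 samples without a construct in the labels, and TKO was 1 sample without one. The labels do not give the promoter of the constructs, their level in the cells or the number of clones. The series concerns Dnmt3a with its histone-binding part altered, and the comparisons below ask how the methylation left by the altered proteins differs from that left by the wild-type one.

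For each group the labels name 1 table, also where they list 2 samples, so each value is from 1 table per group, called a pool below. A pool may join both samples or hold 1 of them. No spread between replicates can be given, and each test compares the reads of 2 pools, not conditions. The pools held 148992409 (WWD), 210550841 (R), 196155033 (WT), 145831662 (C) and 133814232 (TKO) read calls in all. Levels below are the percent of reads with C, and their 95% intervals cover counting error only.

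Only positions with at least 10 reads in all 5 pools, and at least 0.5 times as many reads in TKO as in WT, were used. Of the 4801 flanking tiles, 4129 had such a position, 3299 had at least 3 and 2144 had at least 5. The 4129 tiles held 23074 usable positions, with a median coverage of 139 reads in WWD, 164 in R, 139 in WT, 121 in C and 137 in TKO. Of the 672 tiles without a usable position, 392 had positions with 10 reads in every pool and 280 had none. In those 392 tiles the mean level was 8.04% in WWD, 9.71% in R, 8.25% in WT, 0.399% in C and 1.75% in TKO. TKO was far higher there than in the tiles with usable positions, and WWD stood almost level with WT.

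Flanking tiles mostly had low levels even with the wild-type enzyme, and a minority carried most of the methylation. The mean of the tile means was 2.05% in WWD (2.03 to 2.08), 6.14% in R (6.11 to 6.18), 6.29% in WT (6.25 to 6.33), 0.232% in C (0.222 to 0.242) and 0.188% in TKO (0.179 to 0.196). The median tile was far below the mean, at 0.626% in WWD, 1.19% in R, 1.13% in WT, 0% in C and 0.0411% in TKO. In WT, 47.9% of the tiles were under 1%, 10.9% (448 tiles) were above 20%, and 31 tiles were above 50%. Tiles above 1% made up 52.0% in WT and 3.29% in TKO. In WWD, 58.8% were under 1%, 24 tiles were above 20% and 1 was above 50%. R was close to WT, with 426 tiles above 20% and 29 above 50%. The highest tile mean was 56.2% in WWD, 69.4% in R, 73.3% in WT, 11.3% in C and 7.15% in TKO.

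**Figure D1:**
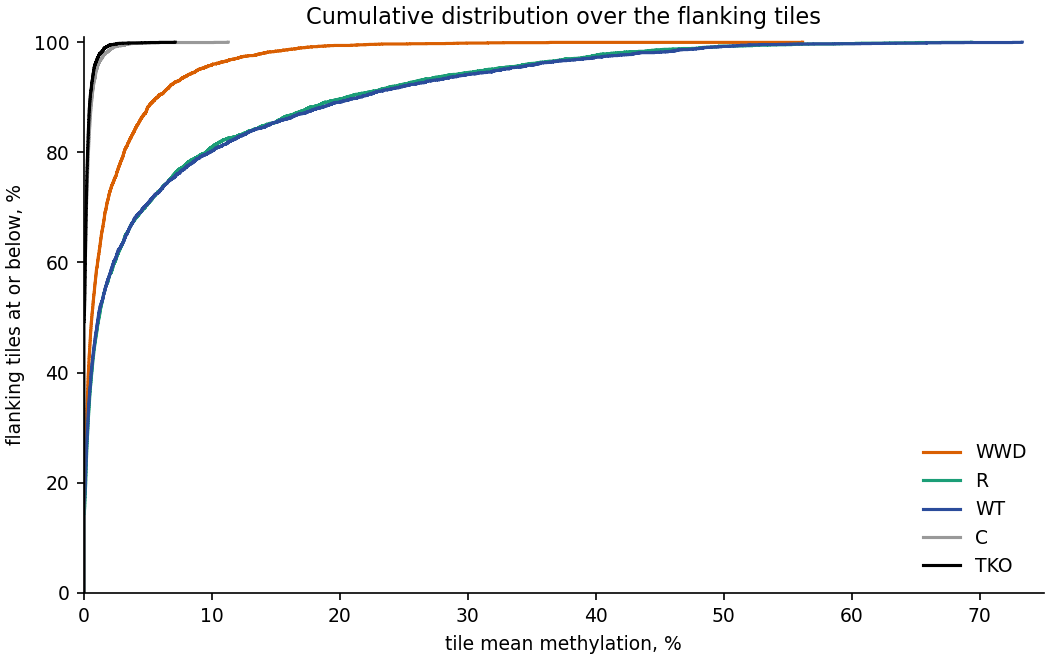
Cumulative distribution of the tile mean methylation (%) over the 4129 flanking tiles with usable positions, with 1 line per pool and the percent of tiles at or below each level on the vertical axis. C and TKO lie against the left edge, WWD lies between them and the lines of R and WT, and R and WT run together, with 10.9% of the tiles above 20% in WT.

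Set beside other tiles, the flanking tiles lay between the dense tiles and the sparse tiles of the rest of the genome. Dense tiles averaged 0.398% in WWD, 0.735% in R, 0.666% in WT, 0.141% in C and 0.133% in TKO over 9310 tiles with usable positions. Distant tiles, which have the same 3 to 19 positions but lie 6 or more tiles from any dense tile, averaged 6.83% in WWD, 28.5% in R, 28.6% in WT, 0.397% in C and 0.222% in TKO over 86164 tiles. The WT mean of the flanking tiles was below that of the distant tiles on each of the 19 autosomes. Among autosomes the flanking WT mean was lowest on chromosome 18 (4.45%) and highest on chromosome 15 (9.15%), where WWD had 1.59% and 3.02%. These are descriptions of the pools, since tiles are not replicates, and no test of the difference between the kinds of tile was made.

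The step was steepest across the first tiles beside a dense tile. In WWD the mean was 2.05% in the flanking tile, 5.20% in the next, 6.08% in the third, 5.94% in the fourth, 6.10% in the fifth and 6.83% beyond. In R it was 6.14%, 19.1%, 23.3%, 24.99%, 25.1% and 28.5% over the same steps. In WT it was 6.29%, 20.2%, 24.2%, 26.0%, 25.6% and 28.6%. WT and R thus had most of their distant level in the second tile, while the flanking tile itself held a small part of it.

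Flanking tiles also hold more covered positions than distant ones, with a median of 8 against 5. Within classes of equal covered positions the order was kept. With 3 or 4 positions, flanking tiles had 3.09% in WWD and 10.7% in WT, and distant tiles 6.76% and 30.3%. With 5 to 9 positions, they had 2.42% in WWD and 7.48% in WT, and distant tiles 7.19% and 29.1%. With 10 to 19 positions, they had 1.27% in WWD and 3.30% in WT, and distant tiles 6.06% and 21.7%.

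**Figure D2:**
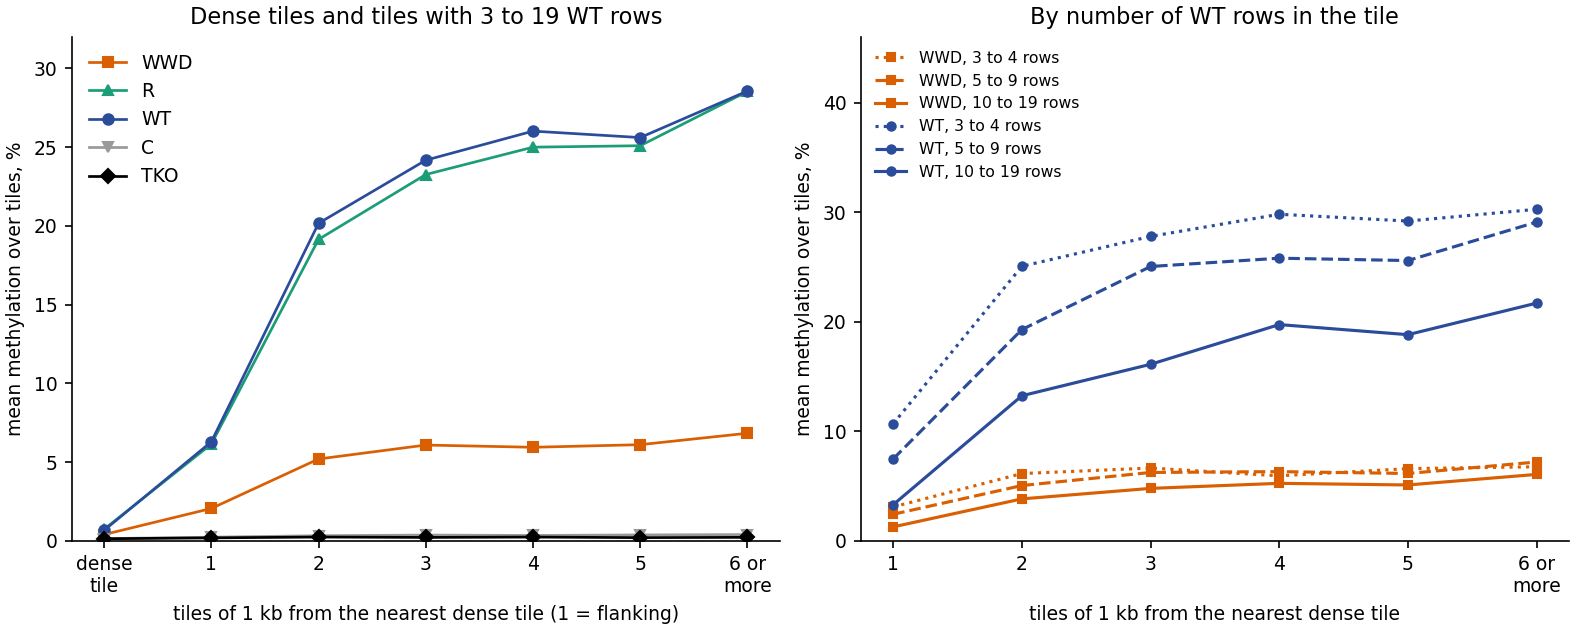
Mean methylation over tiles (%, vertical axes) against the number of 1 kb tiles to the nearest dense tile, in the 5 pools for dense tiles and tiles with 3 to 19 covered positions (left), and in WWD and WT by the number of covered WT positions (rows) in the tile (right). WT and R are at 6.29% and 6.14% in the flanking tile and at 28.6% and 28.5% at 6 tiles or more, and the denser classes are lower at every step in WT.

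The rule's limits cut through gradual changes. Adjoining tiles with 18 or 19 covered positions had 1.08% in WWD and 2.50% in WT (296 tiles), and those with 20 or 21, just outside, had 1.09% and 1.94% (291 tiles). Those with 3 positions had 3.14% in WWD and 11.6% in WT (422 tiles), and those with 2, also outside, 3.48% and 12.7% (456 tiles). Sparse tiles beside a tile of 40 or 41 positions had 2.48% in WWD and 8.51% in WT (211 tiles), and those beside a tile of 38 or 39 had 2.83% and 8.08% (205 tiles).

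With distance from the last covered position of the dense tile, methylation increased in every pool that carries a construct. In the bins below the lower limit belongs to the bin before. The median position lay 202 bp from the dense tile, and the farthest 1691 bp. In WT the mean over positions was 1.25% (1.23 to 1.27) at 1 to 100 bp, 1.67% at 100 to 200 bp, 3.34% at 200 to 400 bp, 6.95% at 400 to 600 bp, 10.3% at 600 to 800 bp, 13.0% at 800 to 1000 bp and 17.98% (17.8 to 18.2) beyond 1000 bp. In R the same steps were 1.31%, 1.83%, 3.34%, 6.92%, 9.97%, 12.6% and 16.9%. In WWD they were 0.664%, 0.816%, 1.34%, 2.58%, 3.47%, 3.89% and 4.79%. The levels of C ranged from 0.144% to 0.293% and those of TKO from 0.133% to 0.212% over these bins. C was highest beyond 1000 bp, where C minus TKO was 0.107 points (0.0679 to 0.145). That difference was 0.0209 points at 1 to 100 bp and -0.0222 points at 100 to 200 bp.

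Both positions with any methylated read and positions of high level were more frequent farther out. In the nearest bin of 6803 positions, 69.4% had no methylated read in WT, and 1.37% were above 20%. In the farthest bin of 1193 positions, 16.0% had no methylated read and 36.1% were above 20%. In WWD 74.1% of the nearest and 33.3% of the farthest positions had no methylated read, and 0.353% and 5.53% were above 20%. The median position was at 0% in WT up to 400 bp and at 11.1% beyond 1000 bp.

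The same tiles showed the slope from end to end. In 290 tiles with usable positions both within 200 bp and beyond 600 bp, WT averaged 12.9% at the far end and 3.43% at the near end, and the far end was higher in 232 tiles and lower in 49. In WWD the far end averaged 3.51% and the near end 1.38%, and it was higher in 188 tiles and lower in 74. The far end of WT was at least 10 points higher in 95 tiles and at least 10 points lower in 6. In TKO the far end had 0.210% and the near end 0.267%. The increase with distance was present in tiles of few and of many covered positions: WT had 2.92% at 1 to 100 bp and 22.8% beyond 1000 bp in tiles with 3 or 4, and 0.838% and 10.6% in tiles with 10 to 19.

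Levels were alike on both sides of the dense tile. Tiles at higher coordinates than their dense tile had 2.06% in WWD and 6.37% in WT (2076 tiles), and those at lower coordinates 2.06% and 6.22% (2032 tiles). Forward-strand positions averaged 2.03% in WWD and 6.27% in WT, and reverse-strand positions 2.12% and 6.43%. The size of the dense tile did go with the level. Beside dense tiles of 40 to 59 covered positions WWD had 2.47% and WT 7.94%, beside 60 to 79 they had 1.94% and 5.82%, beside 80 to 99 they had 1.64% and 5.03%, and beside 100 or more 1.56% and 3.98%.

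With wild-type Dnmt3a2 a minority of the flanking tiles passed a test on reads. A tile was called when summed reads differed by Fisher's exact test at a Benjamini-Hochberg adjusted p under 0.01 over all autosomal tiles tested, and the mean over positions differed by at least 10 points. Between WT and TKO, 564 of the 3299 flanking tiles tested (17.1%) were higher in WT and 0 were lower, while 62.8% of all 80192 autosomal tiles tested were higher and 0% lower. The share of flanking tiles called was thus below that background. The median difference was 20.4 points in the 564 tiles and 0.829 points over all flanking tiles tested. Without the 10-point limit, 1485 flanking tiles were higher and 4 lower at the same adjusted p. Over all 80192 autosomal tiles tested, 63330 were higher and 60 lower. Called tiles lay farther out, with a median position at 674 bp against 170 bp in the tiles not called, and had fewer covered positions, with a median of 7 against 11. Median WT coverage per position was 137 reads in called tiles and 136 in the others.

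Single positions gave the same picture of distance. Called at an adjusted p under 0.01 by Fisher's exact test and at least 25 points, 1367 of 23074 flanking positions (5.92%) were higher in WT than in TKO, against a background of 22.4% of all autosomal positions. The share was 0.911% at 1 to 100 bp, 1.07% at 100 to 200 bp, 2.76% at 200 to 400 bp, 8.56% at 400 to 600 bp, 13.8% at 600 to 800 bp, 19.8% at 800 to 1000 bp and 29.3% beyond 1000 bp. At the last step it was above the share of all autosomal positions. Of those 887695 positions, however, 338047 lie in dense tiles, where the WT mean over tiles was 0.666%. The share among positions outside dense tiles was not computed. The WT mean beyond 1000 bp, 17.98% over positions, was below the 28.6% over distant tiles.

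**Figure D3:**
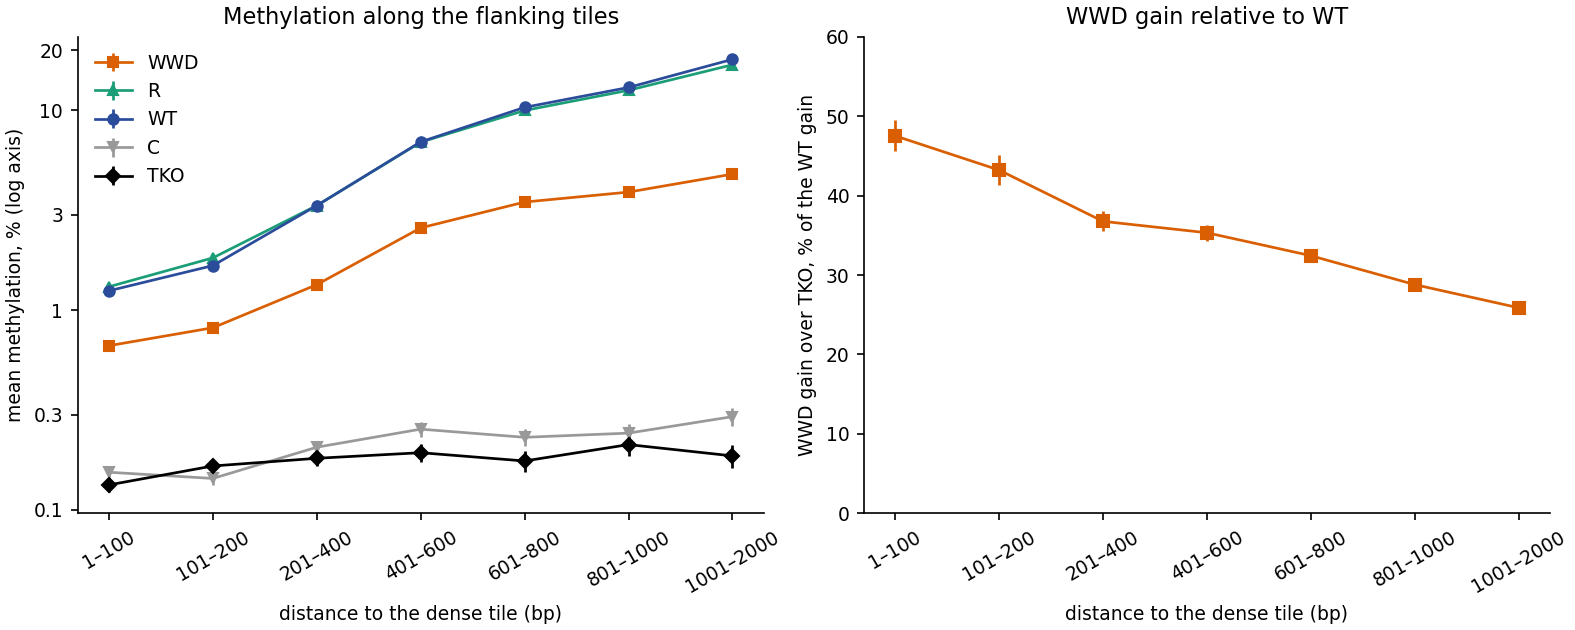
Left, mean methylation of usable positions (%, log axis) in the 5 pools by distance in bp to the nearest covered position of the dense tile, with 95% counting intervals. Right, the gain of WWD over TKO as a percent of the gain of WT over TKO in the same bins, with 95% counting intervals, at 47.5% in the nearest bin and 25.9% in the farthest.

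Among flanking tiles with at least 5 usable positions, the one with the largest gain was at 151827001 to 151828000 of chromosome 3, below a dense tile of 45 covered positions. Coordinates are those of mm9. No gene is named for a tile, since no gene annotation of this build was used. Over 6 positions, 731 to 1038 bp from the dense tile, it averaged 36.4% in WWD, 52.4% in R, 68.8% in WT, 0.0933% in C and 0.342% in TKO. Between 690 and 818 read calls lay behind each value, and the level from summed reads was 69.1% in WT (Wilson 95% interval 65.6 to 72.5) and 0.372% in TKO (0.127 to 1.09). Fisher's exact test of WT against TKO gave an adjusted p of 1.79e-213. It is too small, as are all tile p-values here, because a read counts once for each position it covers.

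Within this tile the positions differed widely. At 731 bp WWD had 10.7%, R 11.7% and WT 27.3%. At 740 bp WWD had 50%, R 65.8% and WT 79.8%. At 755 bp WWD had 44.2%, R 60.3% and WT 80.5%. At 761 bp, where WWD was highest, WWD had 73.1%, R 61.0% and WT 85.4%. At 1002 bp WWD had 36.8%, R 74.8% and WT 82.5%. At 1038 bp WWD had 3.74%, R 40.8% and WT 57.2%. C and TKO were at most at 0.56% and 1.19% in any of the 6. WWD was below WT at each position, but the gap ranged widely between neighbours a few bases apart.

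The other flank of the same dense tile was unmethylated. It runs from 151829001 to 151830000, and its 5 positions, 42 to 176 bp from the dense tile, averaged 2.97% in WWD, 0.544% in R, 0.116% in WT, 0% in C and 2.61% in TKO. Among the same tiles it had the lowest value of WT minus TKO, at -2.49 points (by Fisher's exact test, adjusted p = 0.412). The TKO value came from 1 position at 145 bp, with 13.04% of 23 reads, and the other 4 positions were at 0%. The dense tile itself had 1.01% in WWD, 1.09% in R, 1.11% in WT and 0% in TKO. The methylated flank thus stood on 1 side only, at a larger distance than any usable position of the other side.

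**Figure D4:**
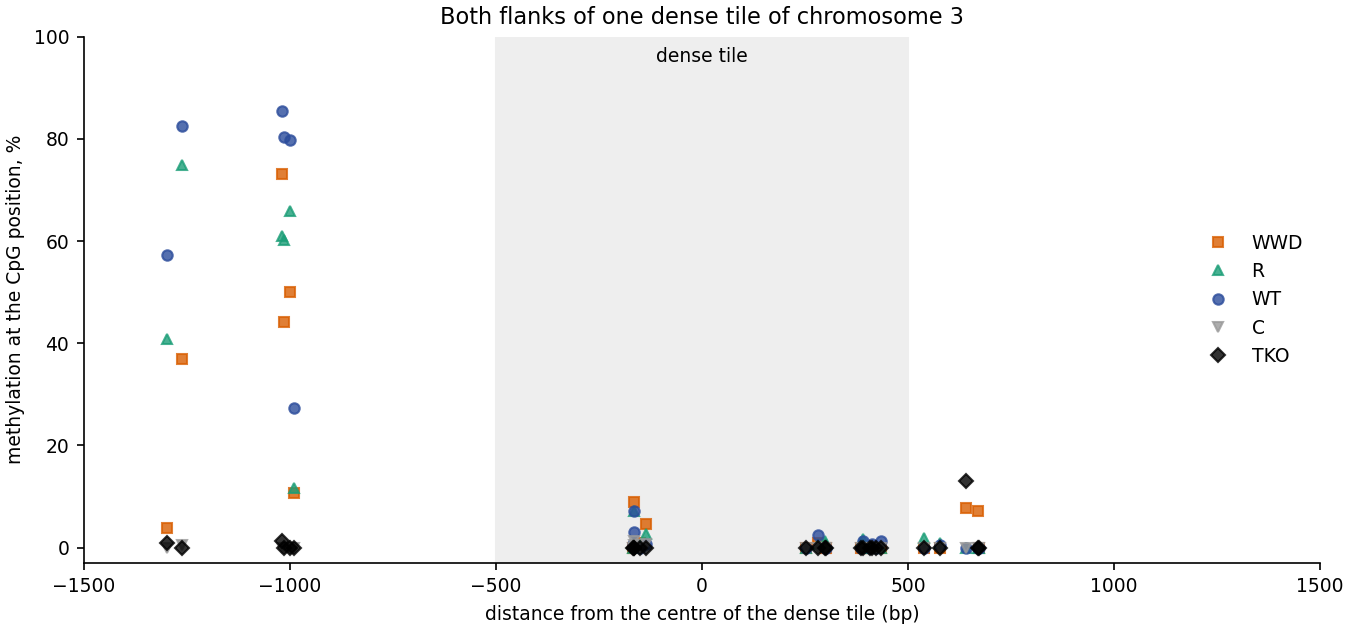
Methylation (%) of each usable position in a dense tile of chromosome 3 (shaded) and in its flanking tiles, by distance in bp from the centre of the dense tile, with 1 symbol per pool. WT positions of the left flank lie between 27.3% and 85.4%, and all WT positions of the right flank are under 1%.

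The 4 next largest gains also lay far from their dense tiles. On chromosome 17 from 46583001 to 46584000, 5 positions 1239 to 1414 bp out averaged 26.8% in WWD, 58.5% in R, 66.9% in WT, 0.692% in C and 0% in TKO. On chromosome 19 from 41816001 to 41817000, 7 positions averaged 7.46% in WWD, 34.9% in R, 51.1% in WT and 0% in C and TKO. On chromosome 15 from 78547001 to 78548000, 12 positions averaged 10.9% in WWD, 45.2% in R, 49.6% in WT, 0.627% in C and 0% in TKO. On chromosome 11 from 102621001 to 102622000, 5 positions averaged 8.33% in WWD, 49.6% in R, 48.98% in WT, 0% in C and 0.368% in TKO. R was within 5 points of WT in the tiles of chromosomes 15 and 11, and WWD was below both in all 4. The smallest values of WT minus TKO after the one above were -2.37 points on chromosome 4 from 131816001 to 131817000, with 0% in WT and 2.37% in TKO, and -1.82 points on chromosome 3 from 132755001 to 132756000, with 0.0845% in WT and 1.91% in TKO.

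Dense tiles with 2 flanking tiles often had unlike levels on their sides. The sides were not matched for the distance of their usable positions, with which levels increased. How far unequal distances account for the gaps here and in the next paragraph was not tested. There were 462 dense tiles with usable positions in both flanks, and across them the WT levels of the sides had a Pearson correlation of 0.182 and a Spearman correlation of 0.187, with the dense tile and the library shared. In WWD these were 0.149 and 0.0948. In WT both sides were under 1% at 99 of them, both were above 10% at 33, and 1 side was above 10% and the other under 1% at 69. With at least 5 positions on each side, 130 dense tiles remained, where WT sides differed by a median of 2.04 points and by over 10 points at 29.

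Among these 130, after the dense tile of chromosome 3, the largest gaps in WT were 42.8 and 36.6 points. Beside the dense tile of chromosome 4 from 140542001 to 140543000 the lower flank had 11.0% in WWD, 45.8% in R and 43.3% in WT, and the upper flank 0.565%, 0.707% and 0.52%. Beside that of chromosome 11 from 98210001 to 98211000 the upper flank had 11.8% in WWD, 41.2% in R and 37.0% in WT, and the lower flank 0.214%, 1.15% and 0.395%. Among the 130, 2 dense tiles had both flanks above 20% in WT. On chromosome 3 from 151928001 to 151929000 the lower flank had 12.9% in WWD, 31.6% in R and 31.99% in WT, and the upper flank 14.2%, 44.8% and 42.2%, while the dense tile had 0.455%, 0.616% and 0.782%. On chromosome 15 from 73555001 to 73556000 the lower flank had 9.60% in WWD, 24.7% in R and 25.3% in WT, and the upper flank 14.0%, 44.4% and 48.4%, with the dense tile at 0.805%, 1.03% and 0.857%.

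Dense tiles beside methylated flanks were mostly low, but more often methylated than dense tiles in general. Flanking tiles were classed by their level in R, and the dense tile beside them was read in the other pools. Beside the 426 tiles with 20% or more in R, the dense tile averaged 1.08% in WWD and 2.51% in WT, while the flank had 9.27% and 33.1%. The median dense tile beside them was at 0.674% in WT, and 48 of the 426 (11.3%) were above 5%. Over all 9310 dense tiles the WT median was 0.223%, and 2.09% were above 5%. Beside the 1947 tiles with under 1% in R, the dense tile averaged 0.267% in WWD and 0.331% in WT, and 8 (0.411%) were above 5%. Beside tiles with 1% to 5% and 5% to 20% in R, 1.76% and 5.44% were above 5% in WT.

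Methylation inside a tile was uneven. Among flanking tiles with at least 5 usable positions and a mean above 10%, the median SD between positions was 12.0 points in WWD (51 tiles), 15.2 points in R (286 tiles) and 15.0 points in WT (289 tiles). In WT the lowest position of such a tile had a median of 2.56% and the highest 46.01%.

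WWD left the flanking tiles with less than the wild-type enzyme did, by a smaller factor than in distant tiles and a larger one than in dense tiles. The mean was 2.05% in WWD and 6.29% in WT, a difference of -4.23 points (-4.28 to -4.18). The gain of WWD over TKO was 30.6% (30.2 to 31.1) of the gain of WT over TKO. In dense tiles this share was 49.7% (49.1 to 50.3) and in distant tiles 23.3% (23.3 to 23.4). The share of the flanking tiles was above that of the distant tiles on each of the 19 autosomes, from 26.2% on chromosome 19 to 37.2% on chromosome 3. The 2 kinds of tile had like depth, with a median of 139 against 143 reads in WWD, 139 against 140 in WT and 137 against 142 in TKO.

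The share fell with distance. It was 47.5% (45.6 to 49.5) at 1 to 100 bp, 43.2% at 100 to 200 bp, 36.8% at 200 to 400 bp, 35.3% at 400 to 600 bp, 32.4% at 600 to 800 bp, 28.8% at 800 to 1000 bp and 25.9% (25.2 to 26.5) beyond 1000 bp. WWD thus increased with distance, but less steeply than WT. In tiles with 3 or 4 covered positions the fall of the share was uneven. Over the same bins it was 50.8%, 32.1%, 28.1%, 28.9%, 32.6%, 20.9% and 23.7%. From the nearest to the farthest bin it went from 42.7% to 26.2% with 5 to 9 positions, and from 51.0% to 28.2% with 10 to 19. The share was larger when positions of reduced TKO depth were kept. Without the filter on TKO depth, WWD had 3.87% and WT 7.03% over 4521 tiles, a share of 51.5%, with 75.3% at 1 to 100 bp and 43.7% beyond 1000 bp. At the 8267 flanking positions left out by that filter WWD had 7.43% and WT 7.51%, with medians of 25 and 107 reads, and TKO had 1.27% with 17 reads.

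Flanking and distant tiles were also sorted by the R pool, which does not enter the share. Where R had under 1%, the share was 57.7% (51.4 to 64.1) in flanking and 28.2% (25.05 to 31.3) in distant tiles. The levels in that class were unlike, with 0.325% in WWD and 0.442% in WT in flanking tiles, and 0.380% and 0.869% in distant tiles. Where R had 1% to 5% the share was 44.4% and 24.1%, with 1.25% in WWD and 2.56% in WT in flanking tiles, and 1.02% and 3.55% in distant tiles. The WT gain, the denominator of the share, was thus lower in the flanking tiles of both classes. At 5% to 10% the share was 33.9% and 19.2%. At 10% to 20% flanking tiles had 4.37% in WWD and 15.1% in WT, and distant tiles 2.98% and 16.0%, shares of 27.9% (27.1 to 28.8) and 17.4% (17.2 to 17.5). The shares were 27.6% and 18.6% at 20% to 30%, 25.8% and 21.4% at 30% to 40%, and 29.5% (28.5 to 30.6) and 27.8% (27.7 to 27.8) at 40% or more. The flanking share was higher in each class, by the least in the last.

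Equal numbers of covered positions left a gap as well. At 10% to 20% in R, tiles with 3 or 4 positions had a share of 26.2% (24.4 to 28.0) in flanking and 14.3% (14.1 to 14.5) in distant tiles. With 5 to 9 positions it was 26.2% and 18.5%, and with 10 to 19 it was 32.7% (31.2 to 34.2) and 25.9% (25.6 to 26.2). At 20% to 30% in R the 3 classes had 25.1%, 29.8% and 27.7% in flanking and 16.1%, 19.6% and 24.4% in distant tiles. No test over replicates stands behind these shares, and the place of a position in its read was not tested.

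**Figure D5:**
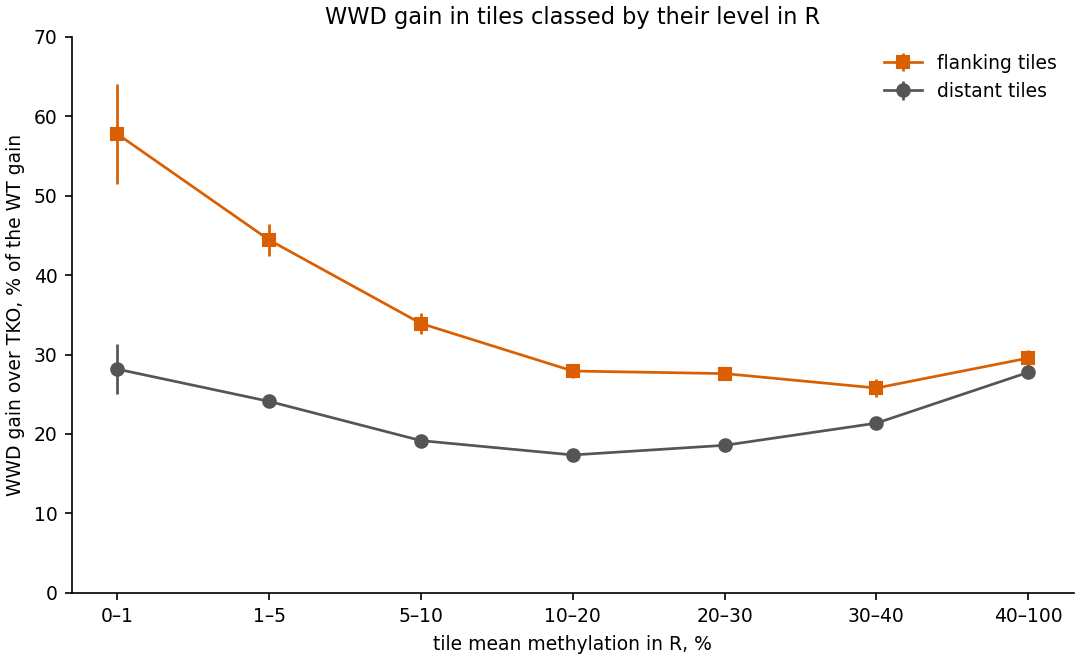
Gain of WWD over TKO as a percent of the gain of WT over TKO (vertical axis) in flanking and distant tiles classed by their mean methylation in R (%, horizontal axis), with 95% counting intervals. Flanking tiles are higher in each class, from 57.7% against 28.2% below 1% to 29.5% against 27.8% at 40% or more.

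By Fisher's exact test as above, 412 of 3299 flanking tiles (12.5%) were lower in WWD than in WT and 0 were higher, where 58.2% of all autosomal tiles tested were lower and 0.00249% higher. At an unadjusted p under 0.05 by that test, 1236 of 3299 flanking tiles differed in either direction, against 60798 of all 80192 autosomal tiles tested. Without the 10-point limit, 31 flanking tiles were higher and 957 lower in WWD at the same adjusted p. Over all autosomal tiles tested these counts were 322 and 57205. Of single positions, 843 of 23074 were lower (3.65%, background 17.7%) and 0 higher (background 0.000676%), and the share lower ranged from 0.397% at 1 to 100 bp to 20.4% beyond 1000 bp. Against TKO, WWD was higher in 106 flanking tiles (3.21%, background 18.5%) and lower in 0 (background 0%), with a median rise of 13.7 points. At an unadjusted p under 0.05, 1402 flanking tiles differed, against 58145 of all 80192 autosomal tiles tested. Of single positions 175 were higher in WWD than in TKO (0.758%, background 2.71%) and 0 lower (background 0.000225%).

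The largest falls in WWD were in 5 tiles, 4 of them among the gains above. Both lists use the WT pool, so a tile high in WT tends to enter both. On chromosome 19 from 41816001 WWD had 7.46%, WT had 51.1%, and the difference was -43.6 points (Fisher's exact test, adjusted p = 5.94e-43). By position, at 804 bp WWD had 0% of 22 reads and WT 52.9% of 17. At 817 bp WWD had 11.4% of 79 reads and WT 71.7% of 60. At 828, 833 and 837 bp WWD had 9.88%, 6.17% and 3.70%, and WT 53.5%, 45.8% and 49.2%. At 1069 bp WWD had 5.32% and WT 25.9%. WWD was lower at every usable position of the tile, all of them 804 bp or more from the dense tile. The one not named above was on chromosome 5 from 115109001 to 115110000, where 8 positions averaged 6.66% in WWD, 39.8% in R, 45.7% in WT, 0% in C and 0.344% in TKO, a difference of -39.0 points. The dense tile beside it had 1.61% in WWD and 2.52% in WT.

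No flanking tile with at least 5 positions was more than 3.42 points higher in WWD than in WT. That value was on chromosome 3 from 115711001 to 115712000, with 6.58% in WWD, 3.13% in R, 3.16% in WT and 0% in C and TKO (adjusted p = 0.00978 by Fisher's exact test). At its position 732 bp from the dense tile WWD had 18% of 100 reads, R 7.53% of 93 and WT 3.08% of 130, and at 735 bp WWD had 7.53% and WT 9.30%. The next were on chromosome 3 from 122688001 to 122689000, with 3.56% in WWD, 2.55% in R and 0.266% in WT, and on chromosome 16 from 93833001 to 93834000, with 3.06% in WWD, 0.324% in R and 0.148% in WT (Fisher's exact test, adjusted p = 1.29e-05). The flank on chromosome 3 from 151829001 described above was the fourth, at 2.85 points. The fifth, on chromosome 8 from 107870001 to 107871000, had 8.09% in WWD, 8.16% in R and 5.36% in WT, a difference of 2.74 points with an adjusted p of 0.0912 by Fisher's exact test. None reached the 10-point limit.

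The R pool was close to WT across the flanking tiles. R had 6.14% and WT 6.29%, a difference of -0.145 points (-0.200 to -0.0905). By distance, R minus WT was 0.0599 points (0.0280 to 0.0918) at 1 to 100 bp and 0.155 points (0.109 to 0.202) at 100 to 200 bp. It was 0.00123 points (-0.0693 to 0.0718) at 200 to 400 bp and -0.0213 points (-0.143 to 0.1004) at 400 to 600 bp. It was -0.369 points at 600 to 800 bp, -0.419 points at 800 to 1000 bp and -1.09 points (-1.34 to -0.838) beyond 1000 bp. The sign thus changed along the flank, within about 1 point. Without the filter on TKO depth R was higher than WT over all flanking tiles, by 0.255 points, and by 0.116 points beyond 1000 bp. R was lower than WT in the flanking tiles of 14 autosomes and higher in those of 5.

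Few flanking tiles were called between R and WT. By Fisher's exact test 4 of 3299 (0.121%) were higher in R, with a background of 1.38%, and 12 (0.364%) were lower, with a background of 1.2%. With counts divided by the number of positions, so that a read counts at most once, 0 were higher and 0.0303% of those tested were lower. Of single positions 5 were higher in R (background 0.0648%) and 10 lower (background 0.0537%). Only 1 rise and 4 falls among the tiles had at least 5 positions. The rise was on chromosome 9 from 54546001 to 54547000, beside a dense tile of 102 covered positions, with 2.74% in WWD, 19.99% in R, 6.24% in WT and 0% in C and TKO (adjusted p = 7.72e-05 by Fisher's exact test). Its 5 positions lie between 200 and 219 bp, and R had 39.3% and WT 13.8% at 200 bp, R 25.9% and WT 7.02% at 204 bp, and R 27.3% and WT 6.90% at 208 bp. At 206 bp R had 1.79% and WT 3.51%, so 1 of the 5 went the other way. About 50 reads lay behind each of these values.

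The largest falls in R were on chromosome 4 from 139129001 to 139130000, on chromosome 3 from 151827001 and on chromosome 19 from 41816001. The first had 8.01% in WWD, 12.7% in R and 35.2% in WT over 5 positions, a difference of -22.4 points (adjusted p = 0.000491 by Fisher's exact test). From summed reads, where deeper positions weigh more, R had 15.6% and WT 27.3%, a difference of -11.7 points. It rested on its far end. At 167 and 205 bp R had 36% and 2.08%, and WT 34.03% and 7.75%. At 1085 bp R had 4.29% of 70 reads and WT 73.5% of 34, and at 1057 and 1090 bp R had 5.88% and 15.3%, and WT 22.2% and 38.2%. On chromosome 3 R had 52.4% and WT 68.8%, and on chromosome 19 R had 34.9% and WT 51.1%, differences of -16.4 and -16.2 points. Both tiles are among the largest gains above, and the WT pool enters both lists. None of these 4 named tiles passed with divided counts.

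C and TKO, for which the labels name no construct, were nearly unmethylated in the flanking tiles. C had 0.232% and TKO 0.188%, a difference of 0.0444 points (0.0313 to 0.0575). In 2140 of 4129 tiles C had no methylated read, and in 2030 TKO had none. By Fisher's exact test 0 of 3299 flanking tiles were called higher and 0 lower in C, with a background of 0.00374% higher and 0% lower. At an adjusted p under 0.01 without the 10-point limit 10 were higher and 1 lower, and 203 differed at an unadjusted p under 0.05. Over all 80192 autosomal tiles tested these counts were 679, 10 and 8363. Of single positions 0 were higher (background 0%) and 0 lower (background 0.000113%). The order of the pools turned with the depth filter: without it C was 0.246 points lower than TKO. The highest C values were chosen after they were seen. On chromosome 11 from 3051001 to 3052000, 3 positions averaged 8.82% in WWD, 39.8% in R, 52.1% in WT, 10.2% in C and 0.657% in TKO, with 333 read calls in C. On chromosome 11 from 45759001 to 45760000, 1 position had 6.76% in WWD, 20.5% in R, 7.27% in WT, 11.3% of 62 reads in C and 0% in TKO.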

How the data were processed

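Bismark, methylKit and the build mm9 stand in the submitters' processing notes, without versions or order. Per the file headers, the authors' deposited tables hold the coverage (a count of reads) at each CpG position and what percent of them read C or T. Per the labels' protocols, MspI fragments of 150 to 250 and 250 to 400 bp were sequenced. Among 6 deposited tables, 5 were used; no label assigns the remaining one to a sample. This left 8 value columns unused. Methylated reads were recovered as coverage times percent of C, rounded.

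Tiles, usable positions, distances and the 5 comparisons were computed in Python 3.11.15 with numpy 2.4.6, pandas 2.3.3 and numba 0.67.0. Fisher's exact tests were two-sided, over 80192 tiles with at least 3 usable positions and over 887695 positions of the autosomes. The test was tried on simulated reads drawn independently at each position. That trial cannot show the effect of a read that counts at several positions, and its outcome is not given here. Intervals of means use binomial variance per position, those of named tiles are Wilson intervals, and PCR copies and several positions per read make all of them too narrow. The members, lists and tests were chosen with earlier results of these data known. Tiles named by rule have at least 5 usable positions: the 5 largest and 3 smallest of WT minus TKO, the 5 largest falls and 5 highest values of WWD minus WT, and up to 3 called rises and falls for R and for C. The 2 tiles of highest C were chosen after their values were seen and have fewer. Alternatives are given in the closing section.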

Additional observations from a re-analysis of the deposited data

How the results depend on the processing

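No paired analysis was possible because 1 table serves both numbered samples of a group, which also means that no sample could be left out. Means below are those of the flanking tiles. Without the filter on TKO depth they were 3.87% in WWD, 7.28% in R, 7.03% in WT, 0.275% in C and 0.521% in TKO, the share of the WT gain was 51.5%, WT had 1.34% at 1 to 100 bp and 20.02% beyond 1000 bp, and tiles called were 0.0743% lower in WT than in TKO, 0.272% higher in WWD than in WT, 0.446% higher in R than in WT, 10.05% higher in WWD than in TKO and 0.0495% lower in C than in TKO. With TKO depth set against C they were 2.36% in WWD, 6.396% in R, 6.46% in WT and 0.236% in TKO, the share was 34.1%, WT had 1.296% at 1 to 100 bp, 0.0295% of tiles were higher in WWD than in WT, and WT minus TKO on chromosome 3 from 151829001 turned to 0.193 points. With dense tiles of 30 or more positions, means were 2.27% in WWD, 6.94% in R and 7.08% in WT, the share was 30.1%, WT had 1.58% at 1 to 100 bp and 0.186% of tiles were higher in R. With 60 or more, means were 1.75% in WWD, 4.92% in R, 5.05% in WT and 0.216% in C, the share was 32.1%, and WT had 0.927% at 1 to 100 bp and 15.7% beyond 1000 bp. Tiles with 3 to 9 positions had 2.66% in WWD, 8.33% in R, 8.60% in WT, 0.266% in C and 0.205% in TKO, a share of 29.2%, and WT levels of 2.06% at 1 to 100 bp and 22.6% beyond 1000 bp; of these tiles 25.7% were higher in WT than in TKO, 19.5% lower in WWD than in WT, 0.682% lower in R than in WT and 5.64% higher in WWD than in TKO.

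Averaged over positions, the means were 1.70% in WWD, 4.69% in R, 4.76% in WT, 0.192% in C and 0.167% in TKO, and from summed reads 1.75%, 4.87%, 4.84%, 0.194% and 0.159%. Distance from the edge of the dense tile gave 1.58% in WT at 1 to 100 bp, and no position lay beyond 1000 bp. At a limit of 25 points, 6.27% of tiles were higher in WT than in TKO, 3.18% lower in WWD than in WT, R against WT gave 0% higher and 0.0303% lower, and 0.152% higher in WWD than in TKO. For R against WT, 0.242% were higher at an adjusted p under 0.05 (Fisher's exact test), 0% higher and 0.0303% lower with divided counts, and 0.0466% higher and 0.187% lower among tiles of at least 5 positions. At 10 points, 12.3% of single positions were higher in WT than in TKO, 0.0217% higher and 9.02% lower in WWD than in WT, 0.0737% higher and 0.204% lower in R against WT and 3.61% higher in WWD than in TKO. At 40 points these were 2.88% higher in WT than in TKO, 1.01% lower in WWD than in WT, 0% higher and 0.00867% lower in R against WT and 0.160% higher in WWD than in TKO. Chosen after seeing the data were a depth limit on all pools, which gave 6.10% in R, and C as the baseline, which gave a share of 30.1%.

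For these differences the cause was not tested. Of the other recomputed values, 152 that answer a comparison stayed close to the reported value. Close means inside the counting interval of a level, or within a fixed ratio of a share of calls. That ratio is wide: 13.2% and 20.3% of tiles higher in WT than in TKO counted as close to 17.1%. In addition, 8 calls of the named R tiles were lost, at 25 points and with divided counts. The choice of tiles cannot change the value of a named tile, so none is given there. Under each setting that changes the filter or the choice of tiles, the share stayed higher in flanking than in distant tiles and higher at 1 to 100 bp than beyond 1000 bp. With 1 pool per group, nothing here measures the spread between cultures.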
